A study of Mus musculus with 6 samples.

Results

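The collagen genes of the mouse cerebellum were followed across cell types and between 2 genotypes by single-nucleus RNA sequencing. The members were all genes of the deposited count tables whose symbol has the form Col, a type number, the letter a and a chain number. The rule found 44 genes of 32286 in the tables, on 15 chromosomes, and each was sorted into 1 of 9 structural classes: 11 fibrillar, 9 FACIT (fibril-associated with interrupted triple helices), 6 basement membrane type IV, 6 beaded-filament type VI, 4 transmembrane, 3 short-chain, 2 multiplexin, 1 anchoring-fibril and 2 other collagens.

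Nuclei came from the cerebella of 6 mice aged 12 weeks, 3 SCA1 mice and 3 sex-matched wild-type (WT) littermates on a C57BL/6 background. SCA1 mice carry a transgene for human ATXN1 with an expanded CAG repeat, the mutation of spinocerebellar ataxia type 1, under the Purkinje cell protein 2 (Pcp2) promoter, so that the model limits the mutant protein to Purkinje cells. WT mice lack the transgene, and neither group received a treatment. Each mouse gave 1 library, and a nucleus carries the SingleR cell type label deposited with it.

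Collagens are triple-helical proteins of the extracellular matrix. Fibrillar collagens form cables in meninges and vessel walls, type IV collagens form the sheet of basement membranes around vessels and at the brain surface, and transmembrane and multiplexin collagens can be shed to release signalling fragments. In the brain most fibrillar collagen is made by fibroblasts and vascular cells, while several neurons make non-fibrillar collagens that act at synapses, with collagen XVIII among those known from the cerebellum.

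The 6 libraries held 45473 nuclei (3354 to 10897 per mouse) and 338270953 unique molecular identifiers (UMIs, 1 per captured RNA molecule), with a median of 2246.5 to 7253 UMIs per nucleus. WT mouse 2 was the shallowest library in UMIs per nucleus, and between 7 and 44 barcodes were shared by any 2 mice. Levels are given as CPM (UMIs of the gene per 1000000 UMIs of that label in that mouse). Human ATXN1 was read in Purkinje nuclei at 4.74, 13.9 and 10.9 CPM in SCA1 mice 1 to 3. It was at 0 in Purkinje nuclei of each WT mouse, so the Purkinje counts matched the genotype labels. In granule neurons human ATXN1 was counted in every mouse of both genotypes, at 0.827 ± 0.337 CPM (SD, n = 6 mice), and the genotypes overlapped. Some other labels of WT mice also held human ATXN1, and the source of these counts was not tested. The Purkinje transcript Pcp2 was also counted in granule neurons, at 48 to 489 CPM, against 352 to 889 CPM (after scaling of library sizes) in Purkinje nuclei. Whether free RNA, doublets or mislabelled nuclei brought it there was not tested.

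Collagens took 120961 UMIs, 0.0358% of all UMIs. A single gene, Col19a1, held 32.6% of them. Nuclear RNA was counted over introns as well as exons, and the collagen genes span 7.11 to 468 kb (GENCODE M21, GRCm38), so levels of different genes were ranked per kb of gene, and sums and shares of UMIs over genes depend on gene length as well as on RNA. Over the 44 genes the Spearman correlation of gene length with total UMIs was 0.13, as a description.

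Levels were first set side by side over the 16 labels that had at least 10 nuclei in 3 or more mice. All nuclei of a label were used, also those whose label was not the most common of their cluster in that mouse. Label and cluster matched in 273 of 292 Purkinje nuclei. They matched in 38 of 263 nuclei of the interneuron label Pvalb-Chrm2, 0 of 458 of Pvalb-Rab3b, 115 of 240 of Lgi2 and 41 of 83 of the choroid plexus label. The label Endothelial_Tip.Dcn.Nnat (Dcn-Nnat below, 24 to 48 nuclei per mouse) had the highest summed collagen level, 4227 ± 976 CPM (SD, n = 6 mice, range 2573 to 5147). Choroid_Plexus.Ttr followed at 1669 ± 693 CPM (n = 5) and the endothelial label Flt1-Lrg1 at 1391 ± 1140 CPM (n = 3), and these last 2 ranges overlapped. The Flt1-Lrg1 mean rested on SCA1 mouse 2, at 2707 CPM, which lay above the lowest Dcn-Nnat mouse, while SCA1 mouse 1 (712 CPM) and WT mouse 1 (753 CPM) lay below the Purkinje mean. Purkinje cells (label Neuron.Gad1Gad2.Pcp2) stood at 940 ± 260 CPM and granule neurons at 257 ± 27.8 CPM (n = 6 each). The Dcn-Nnat label goes by an endothelial name, but its nuclei held almost none of the endothelial markers: Cldn5 was at 0 to 7 CPM and Pecam1 at 0 to 5 CPM. They held Cped1 at 1180 to 1672 CPM, Dcn at 230 to 653 CPM and Slc6a13 at 271 to 631 CPM, which mark fibroblast-like cells, and the label is therefore called by its genes.

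**Figure D1:**
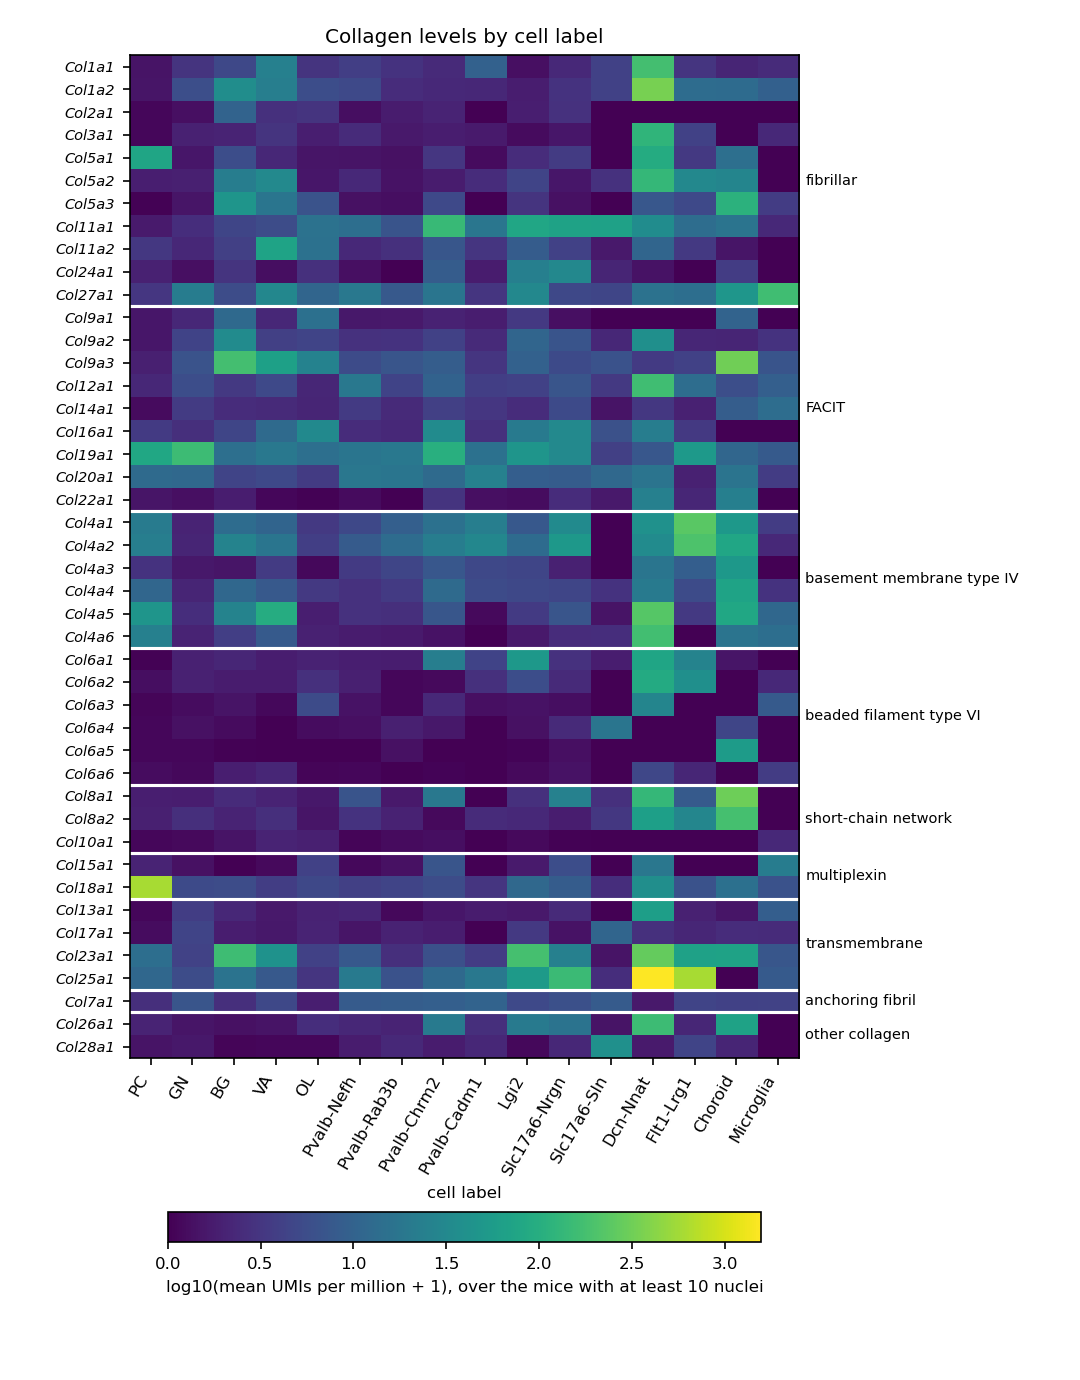
Mean CPM of each of the 44 collagens (rows, grouped by class) in the 16 labels with at least 3 mice (columns; PC Purkinje cells, GN granule neurons, BG Bergmann glia, VA velate astrocytes, OL oligodendrocytes), on a colour scale of log10(CPM + 1). The Dcn-Nnat column holds the highest value of 18 collagens, Col18a1 reaches 602 CPM in Purkinje cells and Col19a1 154 CPM in granule neurons.

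Of the 44 collagens, 18 had their highest mean level in Dcn-Nnat, 7 in the choroid plexus label, 4 in microglia, 3 in the excitatory neuron label Slc17a6-Sln and 2 or 1 in each of 9 other labels. In microglia 3 of the 4 had at least 10 UMIs, Col10a1 had 1 UMI, and 1 (Col27a1) was above the next label in every mouse. For 13 of 44 the lowest mouse of the top label lay above the highest mouse of the next label, and for 23 the top label was above the next in every mouse that had both. The leading cell type of the remaining collagens cannot be read from these mice, and this holds for Col5a1, whose 2 highest labels overlapped.

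The fibrillar collagens, which make up the tensile fibrils of connective tissue, were led by Dcn-Nnat, where their sum was 935 ± 158 CPM (n = 6) against 232 ± 59.0 CPM in the next label. Col1a2, a chain of collagen I, was at 417.6, 309.7 and 348.0 CPM in SCA1 mice and at 313.2, 447.8 and 246.3 CPM in WT mice. Its partner chain Col1a1 ranged from 79.3 to 287 CPM in the same label and Col3a1 averaged 121 ± 28.3 CPM. Each mouse exceeded every value of Col1a2 in Bergmann glia, the next label, at 36.1 ± 10.0 CPM. Per kb of gene, Col1a1 (10.3 CPM per kb) and Col1a2 (9.45 CPM per kb) were the 2 highest collagens of Dcn-Nnat.

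Other fibrillar chains had their highest means in glia and neurons. Col2a1, the cartilage collagen II, was highest in Bergmann glia at 8.1 to 10.9 CPM, with no overlap with oligodendrocytes at 1.99 ± 1.63 CPM. Col11a2 was highest in velate astrocytes at 55.9 to 122 CPM, against 14.4 ± 2.86 CPM in oligodendrocytes. Col11a1 led in the interneuron label Pvalb-Chrm2 at 50.4 to 264 CPM, a wide spread that overlapped with Lgi2 interneurons at 77.4 ± 19.3 CPM. Col24a1 ran from 25.2 to 34.8 CPM in the excitatory label Slc17a6-Nrgn and overlapped with Lgi2 interneurons at 23.3 ± 27.2 CPM, above them in 4 of 6 mice. Col27a1 was highest in microglia at 163 ± 52.3 CPM (n = 5), above the choroid plexus label in every mouse with both.

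The transmembrane collagens were led by Col25a1, at 3.35 CPM per kb of gene in Dcn-Nnat. It is the collagen-like precursor of a component of amyloid plaques. In Dcn-Nnat it stood at 1611, 1244 and 2387 CPM in SCA1 mice and at 173, 1785 and 2221 CPM in WT mice, so that WT mouse 1 was far below the others. In the endothelial label Flt1-Lrg1 it was at 14.2 and 0 CPM in SCA1 mouse 1 and WT mouse 1 and at 1781 CPM in SCA1 mouse 2. The fibroblast-like marker Cped1 moved with it there, at 42 and 38 CPM in the first 2 and 345 CPM in SCA1 mouse 2, and its part in the result was not tested. Col23a1, another membrane collagen, was at 274 ± 67.6 CPM in Dcn-Nnat, at 179.6 ± 72.0 CPM in Lgi2 interneurons, with overlap, and at 161 ± 37.0 CPM in Bergmann glia.

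The choroid plexus label was marked by short-chain collagens, which form hexagonal lattices, and by Col9a3, a FACIT chain. Col8a1 was at 488 CPM in SCA1 mouse 1 and at 434 and 636 CPM in WT mice 2 and 3, but at 0 in SCA1 mouse 2 and WT mouse 1. Col9a3 split the same mice, at 785, 362 and 393 CPM against 7.9 and 28.8 CPM. These mice also split by the choroid plexus transcript Ttr, at 14023, 8781 and 3715 CPM in the first 3 and at 0 in the other two, while the ependymal gene Dnah12 was read in all of them at 943 to 2030 CPM. The label thus held the choroid plexus transcript Ttr in 3 of its 5 mice, and the split followed neither genotype nor batch. Other choroid plexus markers are not given here. Col8a2 did not split, at 149 to 235 CPM in all 5 mice.

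Other collagens had their highest mean in a neuronal label. The excitatory label Slc17a6-Sln held Col28a1 at 32.8 to 48.0 CPM in its 6 mice, against 3.54 ± 6.13 CPM in the next label, with Col6a4 at 16.7 ± 10.8 CPM. Col17a1 averaged 10.2 ± 7.41 CPM there on 12 UMIs, overlapped with granule neurons and was above them in 5 of 6 mice, so its order was not settled. Col19a1, a FACIT collagen known to act in synapse formation, ran from 114 to 203 CPM in granule neurons and was above Pvalb-Chrm2 interneurons (102 ± 27.0 CPM) within every mouse, though the 2 ranges overlapped. It was the only collagen tested that was lower than in granule neurons in each of 15 other labels.

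Type IV collagen, the scaffold of basement membranes, is encoded by 3 pairs of neighbouring genes. Each pair lies head to head: Col4a1 and Col4a2 overlap by 22 bases at their starts on chromosome 8, Col4a4 and Col4a3 start 71 bases apart on chromosome 1, and Col4a6 and Col4a5 start 1308 bases apart on chromosome X. Over the 16 labels the mean levels within a pair had Spearman correlations of 0.99, 0.65 and 0.69, given as a description, since points share libraries and depth. The highest means of the pairs lay in different labels. Col4a1 was at 216, 144 and 358 CPM and Col4a2 at 209, 129 and 255 CPM in the 3 mice with enough Flt1-Lrg1 endothelial nuclei (SCA1 mice 1 and 2, WT mouse 1), Col4a4 (71.2 ± 38.5 CPM) and Col4a3 (49.9 ± 58.2 CPM) had their highest means in the choroid plexus label but overlapped with Dcn-Nnat, above it in 4 and 3 of 5 mice, and Col4a5 (152 to 284 CPM) and Col4a6 (65.8 to 246 CPM) were highest in Dcn-Nnat, above the next label in 6 of 6 mice.

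**Figure D2:**
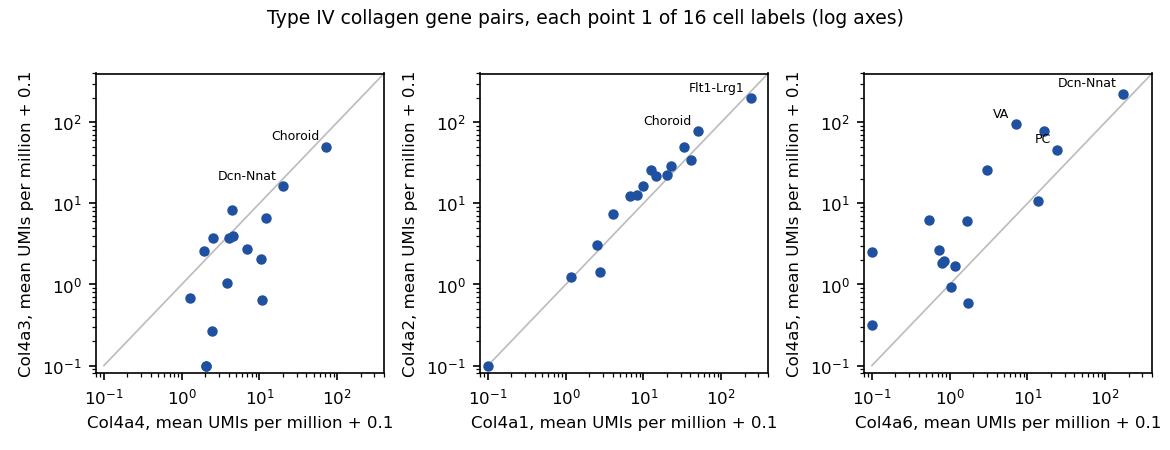
Mean CPM + 0.1 of the 3 type IV gene pairs, 1 panel per pair and 1 point per cell label, both axes log, with the line of equal values. Col4a1 and Col4a2 lie near the line with endothelial Flt1-Lrg1 at the top (239 and 198 CPM), and the other pairs spread more widely around it.

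Both ends of the stretch between Col4a6 and Col4a5 are shown because both genes were raised over granule neurons in Purkinje cells as well as in Dcn-Nnat. Both were also raised in velate astrocytes and in the choroid plexus label. The windows run upstream from the RefSeq starts (GRCm38.p6), are written 5′ to 3′ on the strand of the gene, and leave out any base of an annotated exon. Capitals mark CCAAT or GGGCGG on either strand. Col4a6 is at chrX:141474077-141474326 on the minus strand (250 bases) and Col4a5 at chrX:141475169-141475384 on the plus strand (216 bases).
Col4a6: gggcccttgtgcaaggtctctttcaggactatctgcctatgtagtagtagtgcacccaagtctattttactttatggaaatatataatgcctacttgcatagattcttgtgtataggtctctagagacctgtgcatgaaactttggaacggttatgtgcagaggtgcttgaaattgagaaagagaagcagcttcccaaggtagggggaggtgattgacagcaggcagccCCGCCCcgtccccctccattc
Col4a5: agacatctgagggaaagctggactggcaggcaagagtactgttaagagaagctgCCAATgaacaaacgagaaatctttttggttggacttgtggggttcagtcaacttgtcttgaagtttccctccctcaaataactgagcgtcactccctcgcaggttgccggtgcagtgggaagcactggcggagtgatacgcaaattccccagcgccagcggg
Col4a6 held GGGCGG starting 21 bases before its start, and Col4a5 held CCAAT at 196 bases and, within the 34 bases left out here, GGGCGG at 30 bases.

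**Figure D3:**
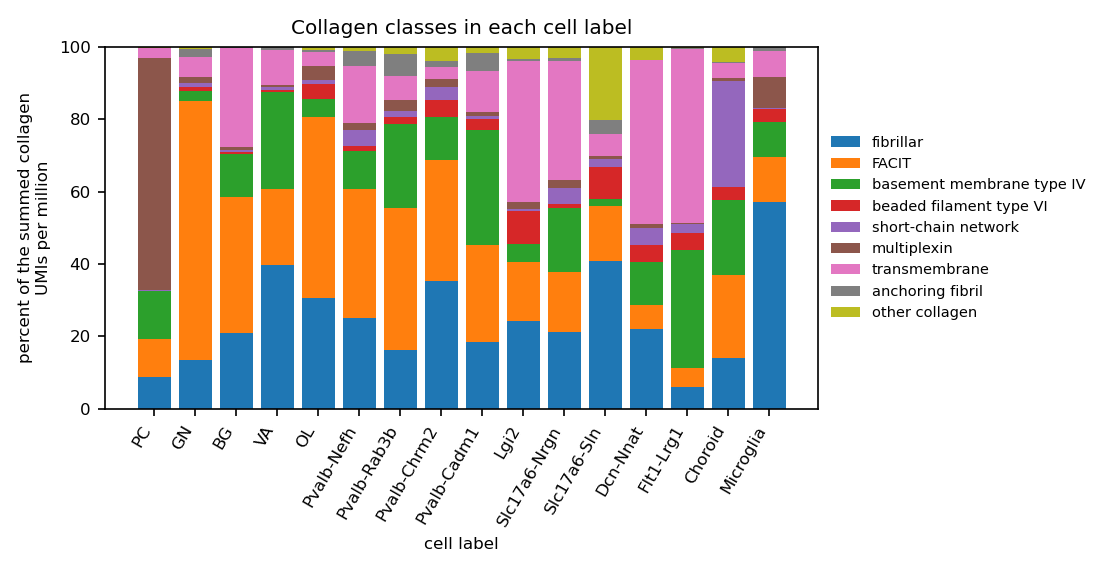
Stacked bars give the percent of the summed collagen CPM (vertical axis) that each class takes in each cell label (horizontal axis). Multiplexins take 64.2% in Purkinje cells (PC), FACIT collagens 71.7% in granule neurons (GN) and transmembrane collagens 45.1% in Dcn-Nnat.

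In Purkinje cells 1 collagen took most of the collagen UMIs. Their 292 nuclei (29 to 76 per mouse, median 16186 to 58288 UMIs per nucleus) held Col18a1 at 368, 476 and 417 CPM in SCA1 mice and at 655, 931 and 767 CPM in WT mice. Collagen XVIII is a heparan sulfate proteoglycan of basement membranes whose end fragment is endostatin. Purkinje nuclei held 75.6% of all Col18a1 UMIs, and the gene was 62.0% of Purkinje collagen UMIs. The next label, Dcn-Nnat, reached 12.5 to 88.8 CPM, far under the lowest Purkinje value. Per kb of gene Col18a1 led in Purkinje cells (5.27 CPM per kb), with Col5a1 next (0.489 CPM per kb) and then Col20a1 (0.371 CPM per kb). These are means over the mice of both genotypes. Col5a1 was lower in SCA1 mice, and its place was not ranked within each genotype.

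Col5a1, a fibrillar chain that starts and limits the width of collagen I fibrils, was at 35.6, 42.6 and 45.8 CPM in Purkinje nuclei of SCA1 mice and at 123, 90.4 and 111 CPM in WT mice. Dcn-Nnat held 34.8 to 152 CPM, and these 2 labels could not be ordered. The choroid plexus label followed at 13.7 ± 10.6 CPM (n = 5), Bergmann glia at 4.67 ± 2.53 CPM and granule neurons at 0.552 ± 0.350 CPM (n = 6 each). No UMI of Col5a1 was seen in Slc17a6-Sln, which allows up to 2.61 CPM, or in microglia, which allows up to 4.85 CPM, counting error only. The partner chain Col5a2 was highest in Dcn-Nnat.

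The upstream windows of the 2 main Purkinje collagens are shown because both were lower in SCA1 mice below. Col18a1 is at chr10:77166549-77166780 on the minus strand (232 bases, 18 exonic bases left out) and Col5a1 at chr2:27886175-27886424 on the plus strand (250 bases), from the same build and with the same use of capitals.
Col18a1: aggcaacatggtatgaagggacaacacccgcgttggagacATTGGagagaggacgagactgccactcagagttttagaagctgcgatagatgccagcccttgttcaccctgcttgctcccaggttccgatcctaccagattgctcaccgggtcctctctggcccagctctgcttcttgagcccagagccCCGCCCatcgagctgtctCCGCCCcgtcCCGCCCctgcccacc
Col5a1: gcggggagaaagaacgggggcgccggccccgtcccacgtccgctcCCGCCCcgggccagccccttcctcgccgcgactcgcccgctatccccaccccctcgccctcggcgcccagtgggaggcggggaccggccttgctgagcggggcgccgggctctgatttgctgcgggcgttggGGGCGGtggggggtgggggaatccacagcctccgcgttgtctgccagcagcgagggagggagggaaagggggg
Col18a1 has a second RefSeq start, whose window (chr10:77113706-77113955, minus strand) held none of the letters searched and is not shown. At the start shown, Col18a1 held GGGCGG (as CCGCCC) at 61, 43 and 33 bases and CCAAT (as ATTGG) at 210 bases before its start, and Col5a1 held GGGCGG at 205 and 73 bases. The letters searched on both strands were the TATA box TATAAA, the CCAAT box, the GC box GGGCGG, the nuclear receptor motif AGGTCA and, as octamers, TGAATGAA and TCAATGAA of Capicua, a partner of ATXN1. Windows of 250 bases were found for 35 collagens (38 starts). GGGCGG was in 57.9% of them against 32.7% of 32851 windows of all genes, CCAAT in 34.2% against 33.8%, TATAAA in 13.2% against 12.4% and AGGTCA in 21.1% against 14.0%. Neither octamer was in a collagen window, against 1.08% and 0.642% of all windows. None of these letter strings lies within another on either strand, and a match describes the letters only.

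Each label was then tested against granule neurons, the most numerous nuclei (37532), with edgeR's quasi-likelihood test within mice. The p-values were adjusted over all genes by the Benjamini-Hochberg method, and a collagen at 0.05 or below was called. The count filter took both labels together, so a collagen near 0 in granule neurons was tested only where the other label held it. Such members could be called higher but hardly lower: Col6a5 was tested in 1 label and Col6a6 in 3, and each was higher in all of them. Counts of collagens higher and lower are therefore a description, and the shares over all genes rest on genes that passed the same filter. In Purkinje cells 10 of 35 collagens tested were higher and 11 lower, near the shares over all genes of 25.2% higher and 35.5% lower. The log2 difference was 7.60 ± 0.35 (SE) for Col18a1, with an adjusted p of 7.94e-09 by edgeR, and 7.11 ± 0.33 for Col5a1, with 8.60e-09. All 6 type IV genes were among the 10, from Col4a5 (5.06 ± 0.32) to Col4a3 (2.11 ± 0.59), with Col23a1 (2.20 ± 0.43) and Col24a1 (1.86 ± 0.74). Those lower included Col27a1 (-3.08 ± 0.25), Col1a2 (-2.87 ± 0.51) and the FACIT chain Col9a3 (-2.50 ± 0.44).

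In Dcn-Nnat 30 of 38 collagens tested were higher and 3 lower than in granule neurons, against 21.3% and 28.5% of all genes, and the median log2 difference was 4.59 for collagens and -0.22 for all genes. The 3 lower were Col19a1, Col7a1 and Col9a3. The choroid plexus label had 20 of 37 higher (19.4% of all genes) and Flt1-Lrg1 endothelial nuclei 7 of 35 (11.4%), led by Col4a1 (6.92 ± 0.32) and Col4a2 (6.66 ± 0.31). The Flt1-Lrg1 count was 3 when only nuclei whose label matched their cluster were kept.

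Bergmann glia had 18 of 36 collagens higher and 5 lower, with 25.8% and 32.9% over all genes. Col5a3 (6.34 ± 0.24), Col23a1 (5.53 ± 0.24) and Col9a3 (5.02 ± 0.20) led. Velate astrocytes had 18 of 36 higher (25.7% of all genes), with Col4a5 (5.64 ± 0.25) and Col11a2 (5.56 ± 0.25) first. Oligodendrocytes had 11 of 38 higher (23.1%), with Col16a1 first (4.05 ± 0.24), and microglia 4 of 29 (15.4%), which was 2 without SCA1 mouse 1 or SCA1 mouse 2.

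Among neurons the excitatory label Slc17a6-Nrgn had 20 of 40 collagens higher (27.4% of all genes), led by Col24a1 (6.25 ± 0.20), and Slc17a6-Sln 3 of 31 (10.4%), led by Col28a1 (5.88 ± 0.43). Of the 5 interneuron labels, Lgi2 had 16 of 35 collagens higher (21.1% of all genes) and Pvalb-Chrm2 15 of 40 (22.3%). Pvalb-Cadm1 had 8 of 32 (15.6%), which was 5 without SCA1 mouse 3, Pvalb-Nefh 7 of 34 (20.8%) and Pvalb-Rab3b 4 of 35 (14.5%). Col4a2 was higher than in granule neurons in 13 of 15 labels, Col4a1 and Col11a1 in 12 each. Col19a1 was lower in 15 of 15, by 0.60 on the log2 scale in Purkinje cells and by 5.40 in Slc17a6-Sln.

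The count of collagens lower than in granule neurons stayed under the share of all genes that were lower. Oligodendrocytes had 9 of 38 lower (27.0% of all genes), Slc17a6-Nrgn 8 of 40 (34.4%) and velate astrocytes 4 of 36 (29.0%). Pvalb-Rab3b, Pvalb-Chrm2, Pvalb-Cadm1 and Lgi2 had 5 each (19.6%, 24.6%, 21.4% and 28.5%) and Pvalb-Nefh 4 (28.5%). Slc17a6-Sln, Flt1-Lrg1, the choroid plexus label and microglia had 2 each (15.3%, 11.3%, 21.8% and 20.8%). With a mouse left out the lower count was 2 in Pvalb-Nefh without SCA1 mouse 2, 3 in Pvalb-Rab3b and Lgi2 without SCA1 mouse 1, and 1 in the choroid plexus label without SCA1 mouse 1 and in microglia without SCA1 mouse 1 or 2.

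Genotype was compared in the 13 labels with at least 10 nuclei in every mouse, as SCA1 against WT with batch as a covariate. The count filter could be passed through the mice of 1 genotype alone. A gene near the cut could thus be tested because it was high in that genotype. No collagen was called in any of them by edgeR (0% of 10517 genes in Purkinje cells, 0.00547% in granule neurons and 0.00866% in oligodendrocytes were called, none in the other 10 labels). At an unadjusted p under 0.05, edgeR gave 4 of 11 collagens in Purkinje cells against 6.85% of all genes there. Col5a1 and Col18a1, which the study named from these mice, were among the 4. The same rule gave 1 in Bergmann glia (1.81%), Pvalb-Nefh (1.01%), Slc17a6-Nrgn (1.18%) and Slc17a6-Sln (2.15%), and none in velate astrocytes (1.1%), oligodendrocytes (0.849%), Pvalb-Rab3b (1.74%), Pvalb-Chrm2 (2.31%), Pvalb-Cadm1 (2.37%) and Lgi2 (1.31%). Granule neurons and Dcn-Nnat are given below. DESeq2 called 2 in Purkinje cells, where it called 0.618% of all genes (65 of 10517), and 0 elsewhere. In simulated Purkinje data with 200 genes changed by 1.5 on the log2 scale, the same test recovered 74.7% of those it tested. Many changed genes ease the cut on adjusted p, and edgeR called no gene in the Purkinje cells of the mice. The simulated share therefore does not give the power for these mice.

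In Purkinje cells 11 collagens had counts enough for a test and 33 did not. Col5a1 and Col18a1 were lower in every SCA1 mouse than in any WT mouse. The study named Col5a1 as lower in these same mice, with a second collagen whose shortened symbol is read here as Col18a1 although the name printed beside it is that of another chain, so their direction is not independent evidence. Levels here are CPM after TMM scaling of library sizes. Col5a1 was at 31.5, 39.9 and 47.4 CPM in SCA1 and at 121.6, 98.5 and 130.3 CPM in WT mice, and the groups were far apart. The log2 difference was -1.59 (SE 0.23, 3.00-fold lower), with an adjusted p of 0.054 by edgeR and 4.24e-05 by DESeq2. Col18a1 was at 325.7, 446.1 and 431.6 CPM in SCA1 and at 646.8, 1013 and 897.2 CPM in WT mice. Its log2 difference was -1.08 (SE 0.20, 2.11-fold lower), with an adjusted p of 0.118 by edgeR and 2.89e-05 by DESeq2. Whether either passed the threshold turned on the tool and, within edgeR, on the scaling factors, the filter and the terms of the fit, with log2 differences from -1.61 to -1.58 for Col5a1 and from -1.10 to -1.07 for Col18a1 in the fits to all 6 mice that called them. Without WT mouse 2 the log2 difference of Col5a1 was -1.75, with an adjusted p of 0.0350 by edgeR, in a fit that called 0.055% of all genes.

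**Figure D4:**
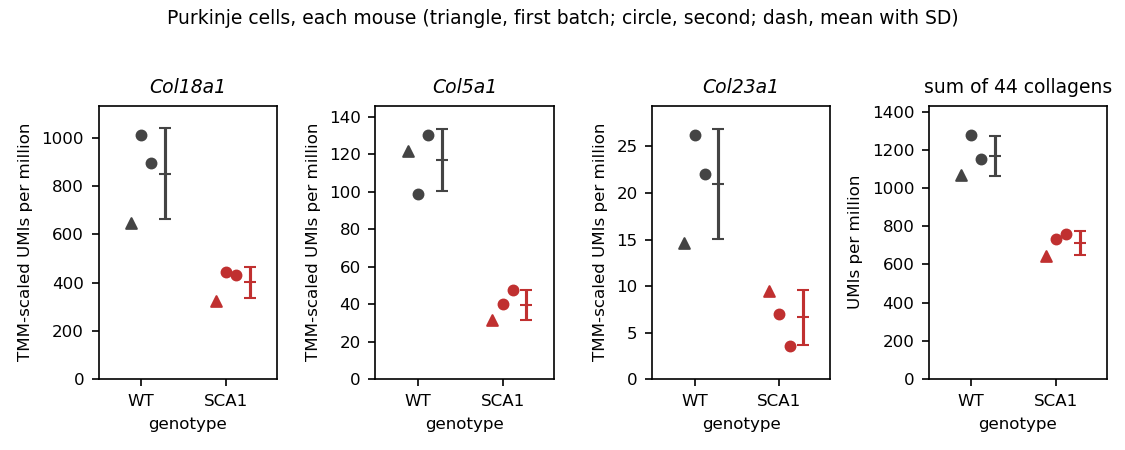
Level in the Purkinje nuclei of each mouse by genotype (horizontal axis), as TMM-scaled CPM for Col18a1, Col5a1 and Col23a1 and as CPM for the sum of 44 collagens (vertical axes from 0). Triangles are mice of the first batch, circles those of the second and bars the mean with its SD, and in all 4 panels the 3 SCA1 mice lie below the 3 WT mice.

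Col23a1 was the third collagen without overlap, at 9.44, 6.94 and 3.56 CPM in SCA1 and 14.6, 26.3 and 22.1 CPM in WT mice. Its log2 difference was -1.52 (SE 0.43, adjusted p = 0.335 by edgeR), and the counts behind it were low. It ran from -1.13 without SCA1 mouse 3 to -2.24 without SCA1 mouse 1 or WT mouse 1. Col5a1 and Col18a1, which the study named from these mice, are in both of the next counts, so neither count is independent evidence. A full separation, SCA1 lower, was seen in 3 of 11 collagens and in 5.04% of all genes tested in Purkinje cells. An unadjusted p under 0.05 with SCA1 lower was seen in 4 of 11 collagens and 4.41% of all genes. The fourth, Col25a1 (log2 difference -2.89, SE 0.61, adjusted p = 0.158 by edgeR), rested on WT mouse 1 alone, at 54.2 CPM, with all other mice between 0 and 6.29 CPM, and was called by edgeR with no filter on low counts (-2.87, adjusted p = 0.00025). In these nuclei the fibroblast-like marker Cped1 was at 16.8 CPM in WT mouse 1 and at 0 to 7.81 CPM in the others, and the granule neuron gene Slc17a7 at 42.0 CPM against 3.56 to 15.0 CPM, and their part in the result was not tested.

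Of the 11 collagens 8 had lower fitted values in SCA1, against 47.5% of all genes, and the median log2 difference was -0.57, against 0.02 over all genes. Col5a1 and Col18a1 were among the 8. In the other labels with more than 10 collagens tested the lower fitted values were 12 of 42 in granule neurons (50.2% of all genes), 7 of 26 in Dcn-Nnat (50%), 8 of 18 in Slc17a6-Nrgn (49.2%), 5 of 15 in Bergmann glia (50.3%), 3 of 14 in velate astrocytes (51.3%), 7 of 12 in Pvalb-Nefh (51%) and 3 of 12 in Pvalb-Chrm2 (49.7%). The median was 0.14 in granule neurons, 0.26 in Dcn-Nnat and 0.21 in velate astrocytes. The type IV genes mixed between genotypes: Col4a1 differed by 0.31 (SE 0.35), Col4a2 by 0.29 (SE 0.30), Col4a5 by 0.05 (SE 0.28), Col4a4 by -0.30 (SE 0.50) and Col4a6 by -0.73 (SE 0.43) on the log2 scale, each with overlap between genotypes. Their sum of 6 genes ran from 106 to 162 CPM in SCA1 and from 83.9 to 145 CPM in WT mice. Col19a1 differed by -0.15 (SE 0.22).

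The summed level of all 44 collagens in Purkinje cells was 644, 733 and 761 CPM in SCA1 and 1070, 1279 and 1151 CPM in WT mice, 1.64-fold lower in SCA1 with no overlap. No test was run on sums. Without Col18a1 the sums were 257 to 344 CPM in SCA1 and 348 to 415 CPM in WT mice. Without Col18a1 and Col5a1 they were 215 to 298 CPM and 258 to 292 CPM and overlapped, so that the separation of the genotypes was lost once both genes were left out.

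Both genes were lower in SCA1 within each batch, batch being read from library numbers that differ in their first digits. Col5a1 had a log2 ratio of SCA1 to WT of -1.95 in batch 1 (1 mouse per genotype) and -1.39 in batch 2 (2 per genotype), and Col18a1 -0.99 and -1.12. Purkinje genes moved in the same libraries: Car8 had a log2 difference of -0.66, Ppp1r17 -0.48 and Calb1 -0.40, each without overlap between genotypes and none past an adjusted p of 0.05 (lowest 0.679 by edgeR), while Pcp2 and Itpr1 overlapped. Their part in the collagen result was not tested.

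The share of Purkinje nuclei with a UMI was compared at an equal depth of 3000 UMIs per nucleus, which left out 2 SCA1 and 10 WT nuclei. Col5a1 was seen in 10.8, 5.88 and 7.14% of nuclei of SCA1 mice and in 35.5, 28.6 and 12.0% of WT mice. Col18a1 was seen in 58.5, 60.8 and 71.4% against 75.0, 88.6 and 88.0%. Both splits gave p = 0.1 in an exact 2-sided permutation test, the smallest that 3 against 3 mice allow. In granule neurons, given for comparison, the shares at 3000 UMIs were 0.145% and 0.139% for Col5a1 and 0.967% and 1.43% for Col18a1 (SCA1 and WT means). Without thinning, Col5a1 was in 34.4 ± 8.47% against 75.7 ± 13.7% of nuclei, and Col18a1 in 93.3 ± 5.89% against 89.5 ± 3.02% (SD, n = 3 mice, exact p = 0.3), nearly every nucleus then holding a UMI.

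**Figure D5:**
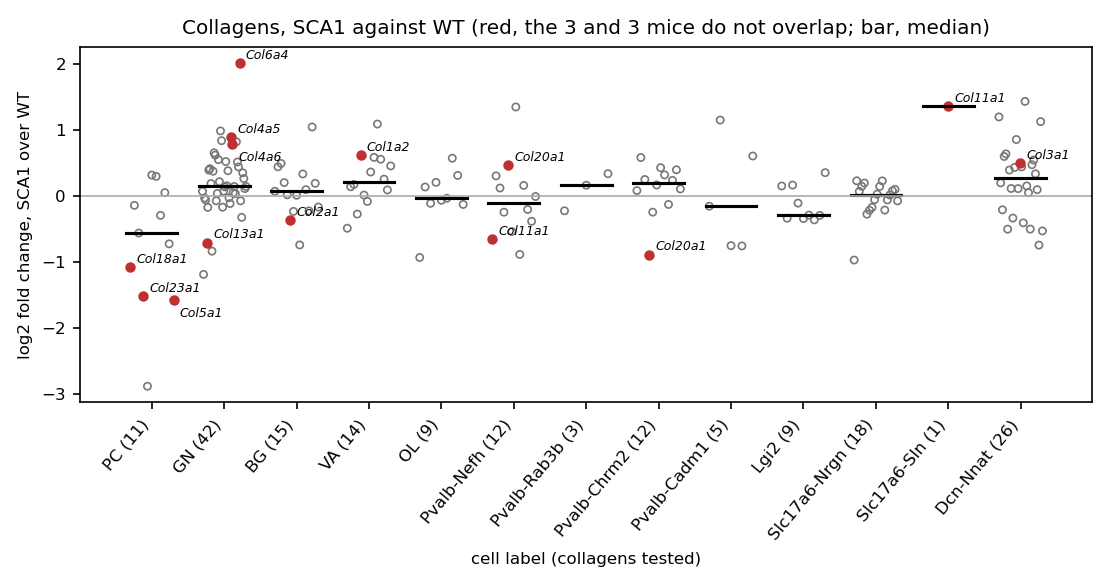
Fitted log2 fold change, SCA1 over WT (vertical axis), of every collagen tested in each of 13 cell labels (horizontal axis, with the number of collagens tested in brackets). Bars are medians and red points are collagens whose 3 SCA1 and 3 WT mice did not overlap; the median is -0.57 in Purkinje cells (PC), where Col5a1 (-1.59), Col23a1 (-1.52) and Col18a1 (-1.08) are red.

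The difference between Purkinje cells and granule neurons in the genotype effect was tested as an interaction. Col5a1 had a difference of effects of -1.45 (SE 0.52, unadjusted p = 0.018, adjusted p = 1 by edgeR) and Col18a1 of -0.25 (SE 0.58, unadjusted p = 0.67 by edgeR). The sign of the Col18a1 value turned to 0.25 without SCA1 mouse 1, 0.11 without WT mouse 2 and 0.19 without WT mouse 3. No gene of 16707 passed, and 4.60% had an unadjusted p under 0.05. In granule neurons Col5a1 differed by 0.04 (SE 0.45) and Col18a1 by -0.84 (SE 0.29, unadjusted p = 0.023 by edgeR) on the log2 scale, with overlap between genotypes. Col18a1 was highest there in WT mouse 1, at 8.86 CPM, the mouse in which Pcp2 was also highest in granule neurons, at 489 CPM, and its part was not tested. In Dcn-Nnat Col5a1 differed by -0.51 (SE 0.53) and Col18a1 by -0.51 (SE 0.54), and Col18a1 differed by 0.07 (SE 0.53) in Bergmann glia.

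In granule neurons 42 collagens were tested. An unadjusted p under 0.05 was seen in 5 of them against 1.82% of all genes, and no overlap between genotypes in 4 against 3.30%, all with adjusted p = 1 by edgeR. Col6a4 was at 0.417, 0.737 and 0.708 CPM in SCA1 and 0.144, 0.205 and 0.0563 CPM in WT mice, a log2 difference of 2.01 (SE 0.49) at very low counts. Col4a6 was higher by 0.78 (SE 0.33) and its neighbour Col4a5 by 0.89 (SE 0.38), both without overlap. The log2 ratio of Col4a5 was 0.10 in batch 1 and 1.47 in batch 2, while that of Col4a6 was 0.74 and 0.79. Col13a1, a transmembrane collagen of the neuromuscular junction, was at 1.64 to 2.44 CPM in SCA1 and 2.98 to 4.17 CPM in WT mice, a log2 difference of -0.71 (SE 0.28). The summed collagens were at 278 to 285 CPM in SCA1 and 219 to 247 CPM in WT mice. Without Col19a1 the sums overlapped, at 82.0 to 134 CPM and 79.1 to 132 CPM.

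Elsewhere 1 collagen met the rule for naming. Col11a1, a fibrillar chain, was the only collagen tested in Slc17a6-Sln, at 63.7, 102 and 177 CPM in SCA1 and 33.4, 37.4 and 56.7 CPM in WT mice. Its log2 difference was 1.35 (SE 0.44, adjusted p = 0.999 by edgeR), and 7.22% of all genes in that label did not overlap between genotypes. Col11a1 could pass the count filter there through the SCA1 mice alone, so its direction is not independent of the filter. In Dcn-Nnat, the label with the highest summed collagen of the 16 with at least 3 mice, 26 collagens were tested, 2 had an unadjusted p under 0.05 (2.20% of all genes) and 1 did not overlap (5.60%). Bergmann glia had 1 of 15 collagens without overlap (4.65% of all genes), velate astrocytes 1 of 14 (4.63%), Pvalb-Nefh interneurons 2 of 12 (3.88%), Pvalb-Chrm2 interneurons 1 of 12 (6.63%) and oligodendrocytes 0 of 9 (3.51%). No collagen was without overlap in Pvalb-Rab3b (5.04% of all genes), Pvalb-Cadm1 (5.56%), Lgi2 (5.77%) or Slc17a6-Nrgn (5.39%).

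The machinery that folds, cuts, binds and degrades collagen was listed in 5 groups of 77 genes in all. Dcn-Nnat held it along with the collagens. Against granule neurons it had 9 of 18 folding and modification genes higher and 1 lower, 8 of 11 higher and 2 lower for cleavage and crosslinking, 8 of 11 receptors higher and 1 lower, 16 of 20 basement membrane partners higher and 0 lower, and 5 of 10 degradation genes higher and 2 lower. Over all genes 21.3% were higher and 28.5% lower. The members picked by their CPM, which is not corrected for gene length and does not order them, were Lama2 (909 ± 228 CPM), a laminin chain, the protease inhibitor Timp3 (475 ± 143 CPM), Smoc1 (377 ± 175 CPM), the collagen uptake receptor Mrc2 (318 ± 103 CPM) and Lama1 (316 ± 108 CPM; SD, n = 6).

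Purkinje cells had 7 of 19 folding and modification genes higher than granule neurons and 3 lower, 2 of 8 higher and 3 lower for cleavage and crosslinking, 4 of 11 receptors higher and 4 lower, 2 of 15 basement membrane partners higher and 4 lower, and 0 of 10 degradation genes higher and 6 lower. Over all genes 25.2% were higher and 35.5% lower. Named after their values were seen, Adamts3, a procollagen N-propeptidase, was higher by 6.90 ± 0.22 on the log2 scale and stood at 179 to 355 CPM, and the proline hydroxylases P3h2 (5.15 ± 0.33) and P4ha2 (4.82 ± 0.27) followed.

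Between genotypes no gene of the 5 groups was called by edgeR in Purkinje cells. Itga1, the collagen-binding integrin alpha 1 chain, was at 26.2, 20.0 and 20.8 CPM in SCA1 and 50.6, 49.9 and 65.1 CPM in WT mice. Its log2 difference was -1.29 (SE 0.26), with an adjusted p of 0.133 by edgeR, 0.0041 by edgeR with no filter on low counts and 0.023 by DESeq2. Lama3, a laminin chain, was at 8.74, 10.4 and 5.93 CPM against 13.7, 19.7 and 24.2 CPM (log2 difference -1.13, SE 0.37, adjusted p = 0.459 by edgeR). These were the 2 genes of 33 tested in the groups with an unadjusted p under 0.05, against 6.85% of all genes in Purkinje cells.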

How the data were processed

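Nuclei from whole cerebella were sequenced by the 10x Genomics 3′ assay, 1 library per mouse. Per the labels and the study's methods, the authors used mm10, extended by human ATXN1, for alignment and counted exonic and intronic UMIs with Cell Ranger (versions 4.0.0, 5.0.1 and 6.0.1 are named in the submitters' processing notes). They removed debris with DIEM and clustered and labelled nuclei with Seurat 4.0.4 and SingleR. For its cell types the study also required that cluster and SingleR label agree, which was not required here outside the alternatives. The files the authors deposited hold raw UMI counts per nucleus and gene, with a SingleR label for each nucleus. Doublets were not treated further here, and every nucleus of the files was kept.

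Here the counts of all 32286 genes were summed per mouse and label (Python 3.11.15, pandas 2.3.3, numpy 2.4.6, scipy 1.17.1). Sums from at least 10 nuclei were used, and CPM divides by all UMIs of the sum. Fits across all genes used edgeR 4.0.16 (quasi-likelihood test, TMM factors, filterByExpr with min.count 10 and min.total.count 15) in R 4.3.3, with batch and genotype as terms for SCA1 against WT and with mouse and label as terms against granule neurons. P-values were adjusted by the Benjamini-Hochberg method over all genes of a fit and called at 0.05. The study's own test took nuclei as replicates and was not run, since nuclei of 1 mouse are not independent. Replicates were mice, as the labels number them, so p-values measure the spread between mice. Batch was read from library numbers in the labels: the mice numbered 1 of both genotypes formed the first batch. Shares of nuclei used 1 random draw of 3000 UMIs per nucleus and exact permutation over mice. Intervals (exact Poisson, 95%) and the limits for a count of 0 (3 UMIs) cover counting error only.

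Named genes were Col5a1 and Col18a1, collagens called or both under an unadjusted p of 0.05 and without overlap in a genotype comparison, up to 4 collagens of highest level per label, and pathway genes by the same rule in Purkinje cells. The members, lists and tests were chosen with earlier results of these data known. Alternatives were DESeq2 1.42.0, RLE factors, library sizes alone, no filter, no batch term, the mouse number as a block, nuclei whose label matched their cluster, nuclei of at least 3000 UMIs, WT mice alone, other thinning depths and each mouse left out in turn. In simulated counts with 200 genes changed by 1.5 on the log2 scale, the genotype fit recovered 74.7% of 190 that were tested in Purkinje cells and 36.2% of 185 in Dcn-Nnat. Many changed genes ease the cut on adjusted p, so neither share gives the power for these mice. Promoter windows and their motifs were read from RefSeq sequences, and gene positions from GENCODE M21, both on GRCm38.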

Additional observations from a re-analysis of the deposited data

Results flagged for a closer look

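Opposite directions between labels, every SCA1 mouse lying on one side of every WT mouse, were seen for the collagen genes Col11a1 and Col20a1 and for the summed level of all collagens. The differences between labels were not tested. Col11a1 had a log2 difference of SCA1 to WT of -0.66 in Pvalb-Nefh interneurons and of 1.35 in Slc17a6-Sln neurons. In Slc17a6-Sln it could pass the count filter through the SCA1 mice alone, and it took 34.9% of the collagen UMIs there. Col20a1, a FACIT collagen, had 0.46 in Pvalb-Nefh and -0.89 in Pvalb-Chrm2 interneurons. No collagen was called by edgeR in these labels. Of all genes, 3.88% in Pvalb-Nefh, 6.63% in Pvalb-Chrm2 and 7.22% in Slc17a6-Sln did not overlap between genotypes. The summed collagen CPM had a log2 ratio of -0.71 in Purkinje cells, 0.27 in granule neurons, 0.23 in velate astrocytes and 0.45 in Slc17a6-Sln neurons.

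Labels with too few nuclei for a comparison also held collagen UMIs, above the limit that a count of 0 allows. Over all mice together the label Dcn-Apod (36 nuclei) held 5822 summed collagen CPM, with an exact Poisson interval of 5515 to 6142, and Col4a5 (17.1%) and Col4a6 (15.4%) led its collagen UMIs. The endothelial labels Flt1-Mgp (25 nuclei) and Flt1-Car4 (22 nuclei) held 747 CPM (644 to 860) and 594 CPM (474 to 736), and Col4a1 took 42.9% and 46.4% of their collagen UMIs. The mural labels Kcnj8 (20 nuclei) and Acta2 (5 nuclei) held 1418 CPM (1184 to 1685) and 2158 CPM (1700 to 2701). Polydendrocytes (12 nuclei) held 570 CPM (474 to 679), the oligodendrocyte label Klk6 (13 nuclei) 175 CPM (108 to 268), and the single nucleus of the astrocyte label Gja1-Gfap 818 CPM (223 to 2095). No outlier test was run, since each genotype had 3 mice.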

How the results depend on the processing

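Of the alternatives run, 513 values kept their direction and side of the threshold or stayed within 1.5 times, 39 counts moved by more, 9 tests passed the threshold only under the alternative and 4 values changed sign. The causes were not tested. In Purkinje cells the count of collagens called for genotype was 0 by edgeR, 2 by DESeq2 (65 of 10517 genes called), 1 with RLE factors (8 of 10517), 4 with no filter on low counts (223 of 21377) and 1 without WT mouse 2 (6 of 10903; 0 to 1 over the mice left out). Col5a1 had log2 differences of -1.61 by DESeq2, -1.61 with RLE factors (adjusted p = 0.0465 by edgeR) and -1.58 with no filter (3.67e-06), and -1.75 to -1.39 with a mouse left out (adjusted p 0.0350 to 0.591). Col18a1 had -1.10 by DESeq2, -1.07 with no filter (0.00536) and -1.13 to -1.02 with a mouse left out, and Col23a1 -1.51 (0.0173) and Col25a1 -2.87 (0.00025) with no filter. With no filter 1 collagen was called in Pvalb-Cadm1 interneurons, Col25a1 at 3.38 (17 of 18884 genes called).

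Deviations of same-numbered mice correlated at 0.667, 0.0564 and 0.483 in Purkinje cells, 0.747, 0.0537 and 0.593 in Bergmann glia and 0.898, 0.340 and 0.870 in granule neurons. Not every pair was over 0.1 in Purkinje cells and Bergmann glia, so the numbers were not taken to pair mice, although every pair was in granule neurons. With the number as a replicate block in place of batch, 3 collagens were called in Purkinje cells (Col5a1 at -1.60, adjusted p = 0.0045 by edgeR, Col18a1 at -1.07, 0.0042, and Col25a1 at -2.94, 0.0195) among 184 of 10517 genes, and Itga1 passed at 0.0204. In Purkinje cells and granule neurons each of the 3 SCA1 mice correlated best with the WT mouse of its own number. In Bergmann glia 2 of them did. The mice numbered 1 also formed the first batch, so their match cannot be told apart from batch. For the other numbers the match is a hint from the data and not from the design. The block changed no call in the other 12 labels.

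Against granule neurons, WT mice alone (3 in place of 6) gave fewer calls. Higher and lower counts were 11 and 1 in velate astrocytes, 7 and 3 in oligodendrocytes, 4 and 1 in Pvalb-Nefh, 2 and 2 in Pvalb-Rab3b, 4 and 3 in Pvalb-Cadm1 and 11 and 3 in Slc17a6-Nrgn, and lower counts were 5 in Purkinje cells, 3 in Bergmann glia, 2 in Pvalb-Chrm2 and in Lgi2, and 1 in Slc17a6-Sln and in the choroid plexus label. With nuclei whose label matched their cluster, 10 were higher in Lgi2, 3 in Flt1-Lrg1 and 2 in microglia (1 lower). Pvalb-Rab3b had no such nucleus and could not be run this way, and Pvalb-Chrm2 kept 38 of 263 nuclei. With library sizes alone 1 was lower in Flt1-Lrg1 and in microglia. With a mouse left out, lower counts ran from 2 to 5 in Pvalb-Nefh, 3 to 5 in Pvalb-Rab3b and in Lgi2, 1 to 2 in the choroid plexus label and in microglia, and higher counts from 5 to 8 in Pvalb-Cadm1 and 2 to 5 in microglia. The lowest of each came without SCA1 mouse 2 in Pvalb-Nefh, without SCA1 mouse 3 in Pvalb-Cadm1, without SCA1 mouse 1 or 2 in microglia and without SCA1 mouse 1 in the others.

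The interaction of Col18a1 ran from -0.91 to 0.25 with a mouse left out and changed sign without SCA1 mouse 1 (0.25), WT mouse 2 (0.11) or WT mouse 3 (0.19), and that of Col5a1 ran from -2.57 to -0.98. The share of Purkinje nuclei with Col18a1 was 3.82 points higher in SCA1 without thinning. Library sizes alone moved the median log2 difference of all genes in Purkinje cells by 0.18, and 7 in place of 8 collagens were then lower in SCA1. Collagens under the count filter had no genotype test, and the number tested ran from 1 in Slc17a6-Sln to 42 in granule neurons.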
